A study of Mus musculus with 4 samples.

Results

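The genes described here are the small noncoding RNA genes and precursors of the deposited expression table, chosen as every listed Ensembl gene whose type in GENCODE mouse M21 is miRNA, snoRNA, scaRNA, snRNA or misc_RNA. They number 284 of 12390 listed genes (2.29%): 109 snoRNA, 98 miRNA, 60 snRNA, 11 misc_RNA and 6 scaRNA genes on 20 chromosomes. The choice used no measured value beyond a gene's presence in the table. Expression was measured by RNA sequencing in cells sorted from mouse bone marrow as hematopoietic stem cells, by a gate negative for lineage markers and CD48 and positive for Sca-1, c-Kit and CD150. Of the 4 libraries, 2 came from control mice with floxed Ddx21 (Ddx21 fl/fl, no Cre) and 2 from knockout mice that carried the same floxed alleles and CAG-CreERT2, a tamoxifen-inducible Cre driven by a promoter active in most tissues. Cre and deletion of the floxed gene therefore came together and cannot be told apart, nor can deletion in the stem cells be separated from deletion in the rest of the animal. Strain, age, tamoxifen dosing and whether separate animals gave the 2 libraries of a group are not stated in the sources used here. The p-values then measure only the spread between libraries, which may be technical.

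Ddx21 is a nucleolar DEAD box RNA helicase that binds snoRNAs and the 7SK RNA and acts in ribosomal RNA transcription and processing. Most mouse snoRNAs are cut from introns of host genes: C/D box snoRNAs guide methylation and H/ACA box snoRNAs guide pseudouridylation of ribosomal RNA, while scaRNAs guide the same changes on the spliceosomal snRNAs in Cajal bodies. The miRNAs are made from hairpins in longer transcripts, and 7SK (Rn7sk) holds the elongation kinase P-TEFb in an inactive complex. The mature forms of these RNAs mostly lack the poly(A) tail from which this library kit primes, so a read in such a gene may come from a precursor, from the host transcript or from a related sequence elsewhere, and the kit does not mark the strand.

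The sequences below were read from RefSeq (GRCm38.p6) for mature miRNAs and from GENCODE M21 transcripts (mm10) for the whole genes. A mature sequence was found for 56 of the 98 miRNA genes, giving 81 mature sequences with 81 distinct seeds, so no seed was shared by 2 of these genes. The mature miRNAs shown first belong to precursors that changed between the groups or had the most reads, with the seed (bases 2 to 8) in capitals. Mir1962, Mir339, Mir181a-2 and Mir378b rose, Mir5128 fell, and Mir703 and Mir6236 were the named precursors with the most reads.
mmu-miR-1962: aGAGGCUGgcacugggacacau
mmu-miR-339-5p: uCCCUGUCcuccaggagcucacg
mmu-miR-339-3p: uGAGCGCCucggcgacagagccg
mmu-miR-181a-5p: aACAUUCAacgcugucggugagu
mmu-miR-378b: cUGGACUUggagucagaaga
mmu-miR-5128: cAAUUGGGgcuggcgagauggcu
mmu-miR-703: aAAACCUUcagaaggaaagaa
mmu-miR-6236: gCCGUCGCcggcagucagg
The next set is the sequence that took the most reads of all 284 genes, Gm23935, with 2 further miRNA entries that are copies of it. Capitals mark a base that differs from Gm23935. Gm24270 was identical over 57 bases, and Gm24187 differed by G11A (Gm23935's base first, counted from the 5′ end), an identity of 98.25%.
Gm23935: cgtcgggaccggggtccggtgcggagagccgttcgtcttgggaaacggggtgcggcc
Gm24270: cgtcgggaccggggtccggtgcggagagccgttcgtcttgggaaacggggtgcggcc
Gm24187: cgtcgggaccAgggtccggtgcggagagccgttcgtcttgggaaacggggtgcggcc
Some of the C/D box snoRNAs described below follow. Capitals mark TGATGA within the first 25 bases and CTGA within the last 20 bases, searched on the transcribed strand only, as the letters of the C box core and the D box. Snord35a, a C/D box snoRNA by name, held only the second of these.
Snord104: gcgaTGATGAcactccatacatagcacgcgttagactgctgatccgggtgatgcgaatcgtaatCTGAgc
Snord49a: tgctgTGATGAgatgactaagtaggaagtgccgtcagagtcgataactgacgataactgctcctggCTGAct
Snord65: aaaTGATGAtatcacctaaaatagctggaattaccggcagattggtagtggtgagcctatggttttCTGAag
Snord35a: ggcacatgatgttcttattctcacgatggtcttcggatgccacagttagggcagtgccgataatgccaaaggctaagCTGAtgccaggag
By the same letters 25 of the 109 snoRNA genes (22.9%) were of the C/D kind, against 20.1% of all 1507 annotated mouse snoRNA genes, and 41 (37.6%, against 43.0%) held ACA in the H/ACA position, 2 to 4 bases from the 3′ end. A further 2 held both and 41 neither. The last set holds genes with higher values in the knockout libraries: the U2 snRNA gene Gm23849, whose 191 bases are identical to those of Rnu2-10, the snoRNA gene Gm24615, and Gm27782, a misc_RNA gene in an intron of Pvt1. No part is in capitals.
Gm23849: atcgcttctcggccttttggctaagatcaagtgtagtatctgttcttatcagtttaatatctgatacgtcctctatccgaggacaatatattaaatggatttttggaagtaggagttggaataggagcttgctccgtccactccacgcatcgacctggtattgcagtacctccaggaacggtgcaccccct
Gm24615: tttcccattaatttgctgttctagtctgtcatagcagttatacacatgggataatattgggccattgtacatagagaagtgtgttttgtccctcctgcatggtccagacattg
Gm27782: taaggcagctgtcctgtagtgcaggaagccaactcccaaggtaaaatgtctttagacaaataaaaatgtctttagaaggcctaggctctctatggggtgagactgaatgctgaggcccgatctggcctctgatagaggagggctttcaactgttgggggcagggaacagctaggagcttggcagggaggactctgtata

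Most of these genes rested on few reads. Whole reads could be recovered from the deposited RPKM values (reads per kilobase of transcript, scaled to the library's reads): the libraries held 55719256 and 62871440 reads in control 1 and 2 and 43256641 and 43218009 in knockout 1 and 2. The 284 genes together held 8184, 9108, 6731 and 6036 of these, which is 0.0147%, 0.0145%, 0.0156% and 0.0140% of each library. Their median length was 106 bases against 2810.5 for all listed genes, and their median of mean reads over the 4 libraries was 7.75 against 933. At 106 bases 1 read was worth 0.168, 0.149, 0.217 and 0.216 RPKM in the 4 libraries. The lowest maximum in the table was 1.0063 RPKM, which a gene of that length passed with about 5 to 7 reads in any 1 library. Accordingly, 57 of the 284 genes (20.1%, against 4.82% of all listed genes) reached that value in 1 library only, and for 30 of the 57 that library was knockout 2. Of all 284, 167 had a mean under 10 reads, 49 had at least 20, 12 at least 50 and 5 at least 100.

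Knockout 2 stood apart from the other libraries. It held the highest value of 53.2% of the small noncoding RNA genes and of 78.3% of all listed genes, and the median small RNA gene lay 0.44 log2 units above the control mean there, against 0.07 in knockout 1 (all tested genes: 0.50 and 0.12). Markers of other cell types also moved with genotype. All 8 osteoblast and stroma markers rose and took 0.0709% and 0.0580% of reads in the controls against 1.10% and 0.311% in the knockouts, and all 8 neutrophil markers fell, from 5.88% and 6.09% to 4.25% and 2.79%. Among stem cell and sort markers Procr, the protein C receptor gene, rose. Of 8 lymphoid markers 3 were listed, of which 2 were tested and neither was called, and Cd3d, Cd3e, Cd3g, Ms4a1 and Pax5 were not listed. The 2 tested, Cd79b and Cd79a, were higher in both knockouts (log2 fold changes 0.60 and 0.81), as were 56% of all listed genes. Among 6 erythroid markers Hbb-bs alone was called, as lower. The median log2 fold change of the 6 was −0.18, with 1 marker higher and 2 lower in both knockouts. The part of these shifts in the values below was not tested, and in such sorted pools fewer cells of a type and less RNA per cell cannot be told apart. Ddx21 itself stood at 10.95, 12.1, 6.20 and 6.60 RPKM in control 1, control 2, knockout 1 and knockout 2 (log2 fold change −0.76, SE 0.30, adjusted p = 0.158 in limma), lower in both knockouts without passing the threshold.

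In the test of knockout against control, 26 small noncoding RNA genes rose and 7 fell of 201 tested. The test was limma on log2(RPKM + 1) with Benjamini-Hochberg adjustment over the 11742 genes whose mean reached 1 RPKM, with calls under an adjusted p of 0.05. The fold changes are log2 differences on that scale, which understates differences of low genes. Over all genes 4.19% were called, 3.33% higher and 0.86% lower, against 16.4% of the small noncoding RNA genes. The median log2 fold change of the 201 was 0.27, against 0.31 for all tested genes. By type, 9 of 86 tested snoRNA genes rose and 1 fell, 9 of 65 miRNA genes rose and 6 fell, 7 of 39 snRNA genes rose and none fell, 1 of 6 misc_RNA genes rose, and none of 5 scaRNA genes was called (0 at an unadjusted p under 0.05). A further 83 genes were under the mean of 1 RPKM and were not tested. The count depended on single libraries: without control 1 it was 3 higher and 0 lower, without control 2 it was 0 and 2, without knockout 1 it was 80 and 16, and without knockout 2 it was 5 and 1. In these 4 fits 1.49%, 0.995%, 47.8% and 2.99% of the 201 were called in either direction, against 0.358%, 0.307%, 58.8% and 0.928% of all genes. Of the 33, the calls on 3, 2, 28 and 5 remained in these 4 fits. Where 1 library of a group is left, it is assumed to vary like the other group. The 3 that remained without control 1 were Mir1962, Mir339 and Gm22956, the 2 without control 2 were Gm22151 and Gm23638, and the 5 without knockout 2 were Gm24615, Gm27782, Gm22888, Mir378b and Mir5128. Mir3091, not among the 33, was called there as well. After a trimmed-mean rescaling of the libraries (TMM-type, which sets the median log2 fold change of all genes from 0.31 to about 0), limma called 0 of the 201 and 0 of all genes (0%), with 45 of the 201 at an unadjusted p under 0.05 against 15.6% of all genes.

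**Figure D1:**
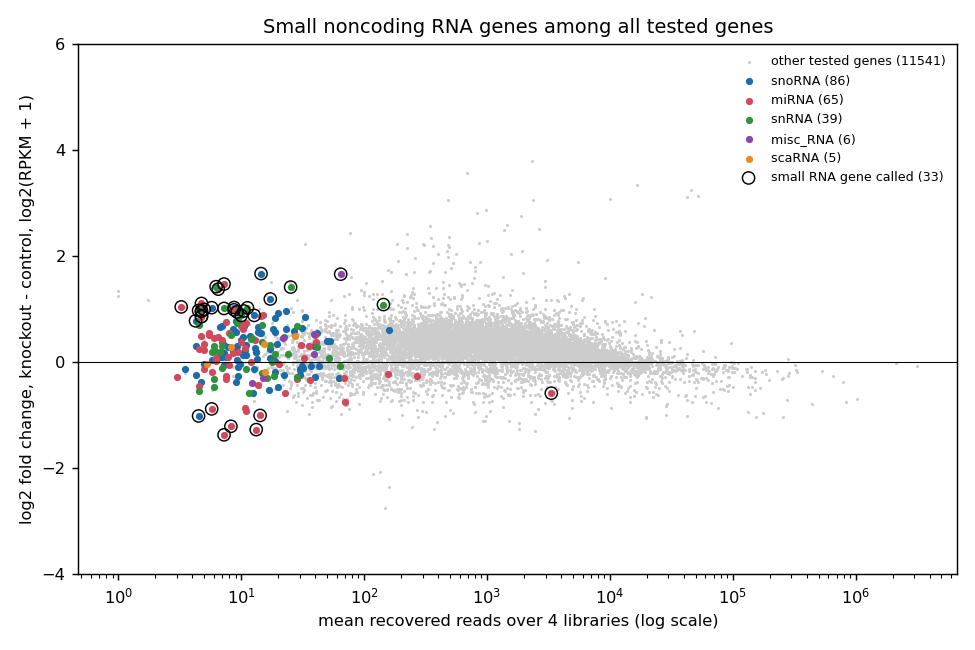
Log2 fold change (knockout minus control, on log2(RPKM + 1)) against the mean of recovered reads over the 4 libraries, on a log axis, for 201 tested small noncoding RNA genes coloured by type, with circles around the 33 called, over the other tested genes in grey. Most coloured points lie under 20 reads, at the far left of the grey cloud, and 4 of the 33 circles lie at 20 reads or more.

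Most of the calls rested on few reads. Of the 33, 21 had a mean under 10 reads, and 4 had at least 20: Gm23935, Gm27782, Gm23849 and Gm25926. The median of mean reads was 7.25 over the called small RNA genes and 1325 over all called genes. In 9 of the 33 at least 1 library had no read, and in 8 the groups overlapped (Gm22151, Gm23935, Gm25190, Mir181a-2, Mir6911, Gm23301, Gm24000 and Gm25128). Of the 26 that rose, 20 had a control mean under 1 RPKM, so they passed the filter through the knockout libraries and their number supports no direction. Of the 7 that fell, 4 had a knockout mean under 1 RPKM and passed it through the control libraries, with the same limit. Beside other genes with as few reads, under 10 reads the share was 24.4% of 86 small RNA genes and 28.6% of 21 other genes, from 10 to under 20 reads it was 12.1% and 7.5%, and from 20 to under 50 reads it was 2.70% and 2.5%. At higher reads the small RNA genes were few: from 50 to under 200 reads 2 of 10 were called (20%, Gm27782 and Gm23849) against 4.40% of 1137 other genes, the 1 gene from 200 to under 1000 reads was not called (others 2.94%), and the 1 gene at 1000 reads or more, Gm23935, was (others 4.56%). This fit used the trend of all genes in place of a gene's own spread, which makes the p-value too small wherever 2 replicates are far apart.

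**Figure D2:**
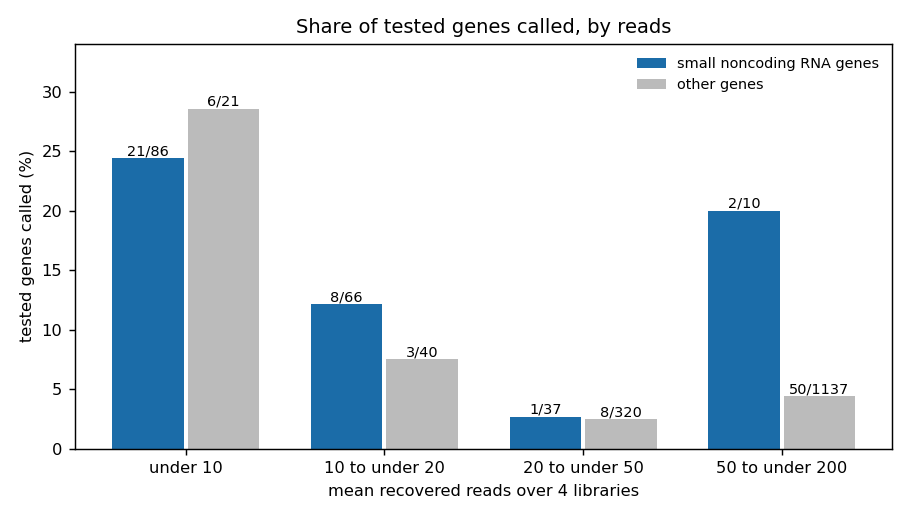
Share of tested genes called (bars, percent from 0) by mean recovered reads, up to 200 reads, for small noncoding RNA genes in blue and other genes in grey, with called over tested numbers above each bar. In both sets the share is 24.4% and 28.6% under 10 reads and 2.70% and 2.5% at 20 to under 50, and at 50 to under 200 reads it is 20% of 10 small RNA genes against 4.40% of other genes.

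A test on the recovered reads themselves, limma with voom weights, made fewer calls among these genes. With TMM-type scaling it called 0 of 201 (smallest adjusted p 0.112, 14 at an unadjusted p under 0.05), against 0.417% of all 11737 genes it tested (0.307% higher and 0.111% lower, with 16.7% at an unadjusted p under 0.05). With the library totals as deposited, a setting chosen after the data were seen, it called 7 higher (Mir1962, Mir339, Gm22956, Gm27782, Gm24615, Gm25926 and Gm24262) and 1 lower (Gm23638), against 3.81% of all genes (3.1% higher and 0.707% lower). All 8 were among the 33. Without any test, 98 of the 284 genes had both knockout values above both control values and 26 had both below, with 160 overlapping. Over all listed genes the shares were 56% higher, 7.51% lower and 63.5% in either direction.

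**Figure D3:**
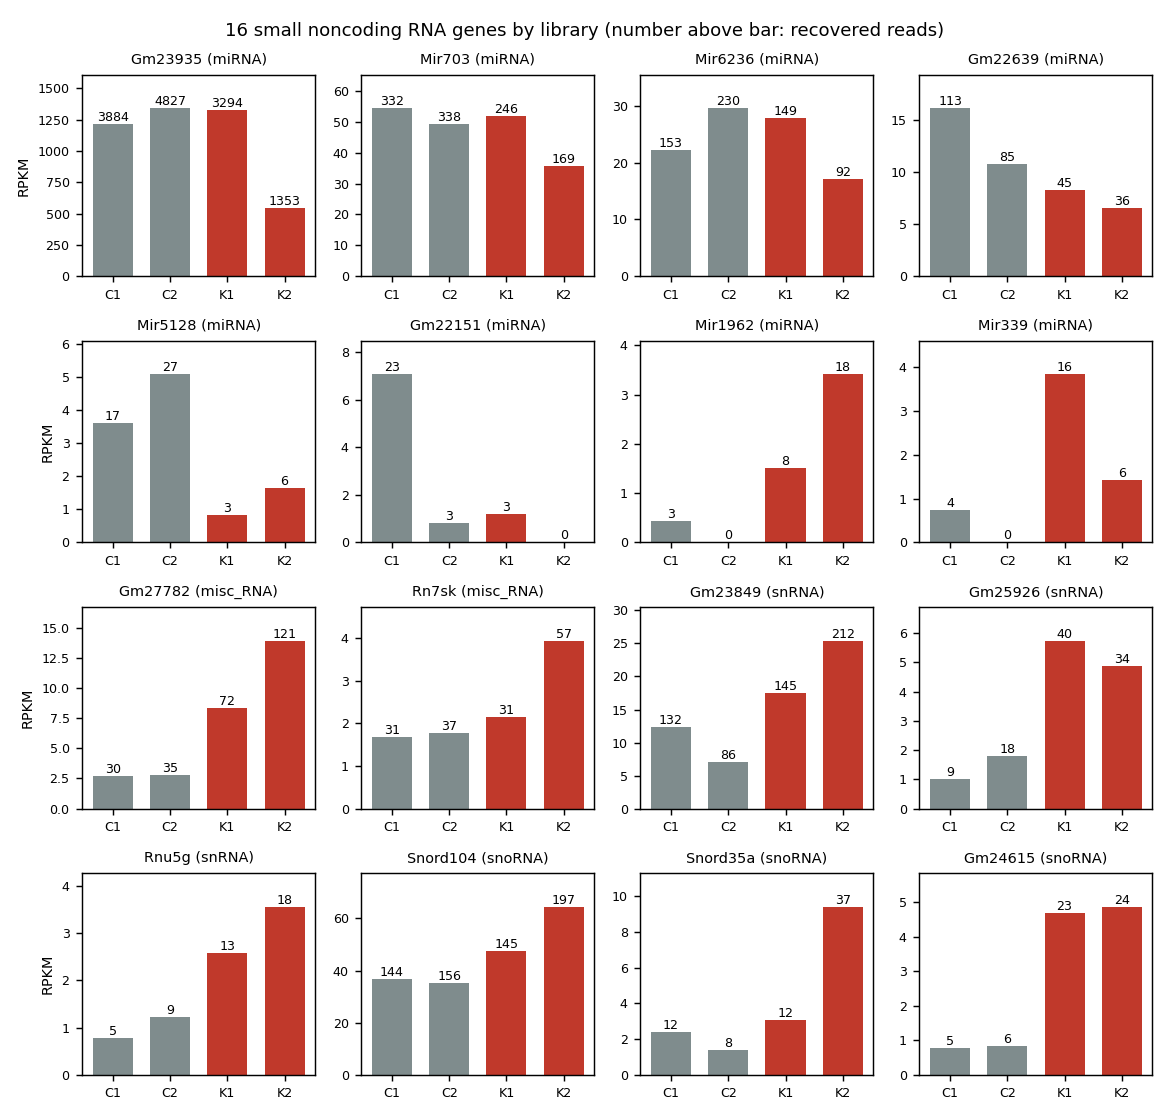
RPKM (bars from 0, each panel with its own axis) of 16 small noncoding RNA genes in control 1 and 2 (C1, C2, grey) and knockout 1 and 2 (K1, K2, red), with the recovered reads above each bar. Gm24615 stands at 5 and 6 reads in the controls and 23 and 24 in the knockouts, while the fall of Gm23935 lies in knockout 2 alone.

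Among snoRNA genes, Gm24615 had the largest rise. It lies on chromosome 9 (70475484 to 70475596, plus strand), inside Rnf111, a ubiquitin ligase gene of the opposite strand, and had 5, 6, 23 and 24 reads in control 1, control 2, knockout 1 and knockout 2, the order in which values are given throughout. The groups did not overlap and the libraries of a group lay close together. Its RPKM was 0.815 ± 0.0359 in controls and 4.77 ± 0.137 in knockouts (SD, n = 2 each), a log2 fold change of 1.67 (SE 0.32, limma adjusted p = 1.9e-05). The call held without knockout 1 and without knockout 2 and was lost without either control (log2 fold changes of 1.64 to 1.69). As the kit does not mark the strand, reads in Gm24615 may also come from Rnf111, which was not tested. Snord35a, a C/D box snoRNA in an intron of Rpl13a, had 12, 8, 12 and 37 reads, with knockout 2 alone far above the rest. Its log2 fold change was 1.19 (SE 0.34, limma adjusted p = 0.0149), and without knockout 2 it was 0.51 and not called. Rpl13a, a large-subunit ribosomal protein gene, had a log2 fold change of 0.26 (limma adjusted p = 0.503). Its other listed snoRNAs, Snord32a (5, 12, 9 and 3 reads) and Snord34 (8, 3, 6 and 10 reads), showed overlapping groups, so of the 3 snoRNAs of this host transcript 1 was called.

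Snord104, with the most reads of the snoRNA genes, had 144, 156, 145 and 197 reads. In RPKM, which accounts for the smaller knockout libraries, it stood at 36.7, 35.3, 47.6 and 64.5, both knockouts above both controls. The log2 fold change of 0.61 (SE 0.20) missed the threshold (limma adjusted p = 0.0524), and was 0.24 after rescaling. Snord65, Snord49a and Snord49b sit in introns of the noncoding gene 2410006H16Rik. Snord65 had 19, 16, 23 and 34 reads (0.97, limma adjusted p = 0.0622), Snord49a 45, 55, 42 and 57 (0.40, 0.404) and Snord49b 42, 30, 17 and 31 (−0.16, 0.729). Their host stood at 77.9, 57.9, 84.1 and 114.05 RPKM (0.54, adjusted p = 0.0661), so 1 of the 3 differed in sign from the transcript around it. In Rpl17, Snord58b fell (9, 6, 3 and 0 reads, limma adjusted p = 0.00581) and Gm23301 rose (3, 2, 2 and 12 reads, adjusted p = 0.0439, overlapping groups), while the host's log2 fold change was −0.09. Both calls rest on counts of 12 or fewer per library. Gm26448, in an intron of Rpsa, rose (7, 8, 13 and 23 reads, adjusted p = 0.0358), and its host's log2 fold change was −0.17. The other 5 snoRNA genes that rose, Gm22888, Gm24000, Gm24262, Gm24944 and Gm25128, had at most 19 reads in any library, and 2 of them, Gm24000 and Gm25128, had overlapping groups. Snora31 of the Tpt1 gene, an H/ACA RNA by name, had 83, 70, 28 and 69 reads, with knockout 1 alone low.

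The scaRNA genes gave no call in 5 tested. Gm25395, in an intron of the autophagy gene Atg16l1, had 25, 22, 18 and 44 reads (0.49, limma adjusted p = 0.386). Scarna13, in Snhg10, had 18, 19, 3 and 22, Scarna17 had 10, 2, 1 and 8, and Gm23119, which lies next to Scarna17, had 11, 12, 2 and 36. In all 3, knockout 1 held the lowest number and knockout 2 the highest or the next to it, and the spread between the knockouts was larger in RPKM than the difference between the group means.

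The snRNA genes held 7 rises and no fall. Gm25926, in an intron of Fut8 (the core fucosyltransferase) on chromosome 12 (77418417 to 77418576, plus strand), had 9, 18, 40 and 34 reads. Both knockouts lay above both controls, at 5.31 ± 0.616 against 1.39 ± 0.549 RPKM (SD, n = 2 each). The log2 fold change was 1.41 (SE 0.33, limma adjusted p = 0.00133), against 0.46 for Fut8 (adjusted p = 0.207), and the call was lost without control 1 (1.18), without control 2 (1.65) and without knockout 2 (1.51). Gm22956 (3, 0, 3 and 19 reads) had its reads mostly in knockout 2, and without that library its log2 fold change fell from 1.42 to 0.53 and the call was lost. Rnu1a1, a gene of the U1 snRNA that recognises the 5′ splice site, had 5, 7, 14 and 14 reads (0.88, limma adjusted p = 0.0352). Rnu5g, of the U5 snRNA of the splicing catalytic core, had 5, 9, 13 and 18 (1.02, adjusted p = 0.0249). Gm24378 and Gm25654 completed the list with means under 10 reads. Rnu12, of the minor spliceosome, had 21, 21, 28 and 20 reads, not scaled for the smaller knockout libraries, and was not called.

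The U2 snRNA pairs with the branch point of introns, and 11 of the listed genes are full-length copies of its 191 bases. Gm23849, in an intron of Rdm1 on chromosome 11 (101627366 to 101627556, plus strand), had 132, 86, 145 and 212 reads, the most of the snRNA genes. Its RPKM rose from 9.73 ± 3.68 to 21.4 ± 5.66 (SD, n = 2 each; log2 fold change 1.08, SE 0.26, limma adjusted p = 0.00190), and the log2 fold change of Rdm1 was 0.71 (adjusted p = 0.198). The call was lost without control 1 (1.44), without control 2 (0.73) and without knockout 2 (0.82). Rnu2-10 (25, 23, 33 and 33 reads), Gm23971 (38, 34, 27 and 15) and Gm24950 (2, 1, 13 and 5) have exactly the same sequence as Gm23849, so their reads cannot be assigned by sequence within the gene, and how reads matching several genes were counted is not given in the sources used here. Summed over the 4 identical genes there were 3.54, 2.29, 5.04 and 6.13 reads per 1000000 recovered reads, with no overlap between the groups, also after rescaling (3.93, 2.67, 5.17 and 4.61). Gm23849 held 132 of 197, 86 of 144, 145 of 218 and 212 of 265 of these reads, so this sum adds no support to its call. Both knockouts lay above both controls in 56% of all listed genes. Over all 11 copies the sums were 5.69, 5.68, 7.84 and 8.75, and after rescaling the groups overlapped (6.32, 6.63, 8.03 and 6.58). Gm25360, with 4 bases different from Rnu2-10 (C78T, A95G, G109C and C154T, the base of Rnu2-10 first, counted from its 5′ end), had 54, 100, 45 and 57 reads and a log2 fold change of −0.08.

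Of the misc_RNA genes, Gm27782 had the clearest change. It lies on chromosome 15 (62080245 to 62080443, plus strand) in an intron of Pvt1, the long noncoding RNA gene beside Myc, and had 30, 35, 72 and 121 reads. Both knockouts lay far above both controls, at 11.1 ± 3.98 against 2.74 ± 0.0661 RPKM (SD, n = 2 each). The log2 fold change was 1.66 (SE 0.33, limma adjusted p = 4.7e-05). Pvt1 rose as well, from 1.37 and 0.835 to 3.49 and 5.68 RPKM (1.39, SE 0.32, adjusted p = 0.00102), so both the intronic gene and its host rose. The call on Gm27782 held without knockout 1 and, at 1.32, without knockout 2, and was lost without either control (1.64 and 1.68). Rn7sk, the 7SK RNA gene, had 31, 37, 31 and 57 reads. Its values of 1.67, 1.77, 2.15 and 3.95 RPKM were higher in both knockouts, by 0.54 (SE 0.32), without passing the threshold (limma adjusted p = 0.363). Rny1, a Y RNA gene, had 10, 2, 4 and 6 reads and a mean under 1 RPKM. The 3 misc_RNA genes in introns of St7 (Gm27365, Gm27542 and Gm27960) had 7 to 46 reads a library, and none was called.

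Among genes annotated as miRNA, Gm23935 dominated the whole set. It lies on chromosome 16 (11144125 to 11144181, plus strand), inside Zc3h7a of the opposite strand, and had 3884, 4827, 3294 and 1353 reads, or 47.5%, 53.0%, 48.9% and 22.4% of all small RNA reads. Only knockout 2 was low: knockout 1 lay between the controls in RPKM (1216 and 1340.5 in controls, 1327 and 544 in knockouts). The called fall of −0.59 (SE 0.16, limma adjusted p = 0.0130) therefore rests on 1 library, and without knockout 2 the log2 fold change was 0.06. Gm24270, identical over all 57 bases, had 87, 83, 67 and 37 reads, and Gm24187 had 38, 34, 21 and 20. In control 1 the identical sequences of Gm23935 and Gm24270 thus had 3884 and 87 reads, and what set the reads assigned to each apart was not tested. Mir6236 (153, 230, 149 and 92 reads, −0.22) and Mir703 (332, 338, 246 and 169 reads, −0.26) also had their lowest value in knockout 2 and were not called. No ribosomal RNA sequence was at hand to compare with Gm23935 and Mir6236. Whether their reads come from miRNA precursors was therefore not tested. Mir703 shares 98.2% of its hairpin with Eef1a1, the translation elongation factor, which stood at 6286, 5908, 5963 and 4870 RPKM, with a log2 fold change of −0.18.

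The other falls among miRNA genes were small in reads. Mir5128, in an intron of Strbp, had 17, 27, 3 and 6 reads, with both knockouts below both controls. Its RPKM fell from 4.35 ± 1.04 to 1.23 ± 0.578 (SD, n = 2 each; log2 fold change −1.27, SE 0.32, limma adjusted p = 0.00409), while Strbp had a log2 fold change of 0.23 (adjusted p = 0.576). The call held without either knockout (−1.01 and −1.54) and was lost without control 1 (−1.47) and without control 2 (−1.07). Gm22774 had 22, 23, 8 and 4 reads (−1.01, adjusted p = 0.0370), and 10 near-identical copies, 1 of them the ferritin light chain gene Ftl1, whose log2 fold change was −0.31. Gm25361 had 14, 5, 2 and 2 reads. Gm22151 had 23, 3, 3 and 0 (−1.37), and without control 1 its log2 fold change was −0.30 and not called. Gm23638 had 20, 10, 1 and 2 reads (−1.21, adjusted p = 2.3e-04) and 547 near-identical annotated copies.

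Entries with many copies are described together here. With near-identical taken as at least 95% identity over at least 90% of the length, 68 of the 284 genes had such a copy among all GENCODE transcripts, and 12 miRNA and 4 snRNA genes had 50 or more. The 12 miRNA entries summed to 298, 262, 120 and 170 reads, which is 5.35, 4.17, 2.77 and 3.93 per 1000000 recovered reads, lower in both knockouts, also after rescaling (5.95, 4.86, 2.84 and 2.96). Of the 12, 7 were tested, Gm23638 fell and Gm25190 (4, 8, 5 and 25 reads) rose. In 6 of the 12 both knockouts lay below both controls, against 17 of all 98 miRNA genes and 7.51% of all listed genes. Such entries can be listed through the control libraries alone, as Gm27857 and Gm27903 below were. Neither this number nor the sums therefore support a direction. Of the 12, the one with the most reads, Gm22639 in an intron of Zcchc7, had 113, 85, 45 and 36 reads (−0.76, SE 0.29, limma adjusted p = 0.133), while Zcchc7 had a log2 fold change of 0.51. Gm27857 (13, 9, 0 and 0 reads) and Gm27903 (12, 10, 0 and 0 reads) had no read in either knockout, which allows up to 3 reads in each library from counting error alone. Their means were under 1 RPKM, so they were not tested, and they are named here after their values were seen. The 4 snRNA entries with many copies summed to 38, 39, 14 and 60 reads, with overlapping groups.

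Of the rises among miRNA genes, Mir1962 in an intron of Ptpre, a protein tyrosine phosphatase gene, had 3, 0, 8 and 18 reads (1.47, SE 0.26, limma adjusted p = 3.1e-06). Ptpre had a log2 fold change of 0.54 (adjusted p = 0.285). Mir339, in an intron of 3110082I17Rik, had 4, 0, 16 and 6 reads (1.38, SE 0.27, adjusted p = 3.9e-05), and its host one of 0.07. Both had control means under 1 RPKM, and the size depended on the pseudocount: with 0.1 the log2 fold changes were 3.35 and 3.07, and with 5 they were 0.51 and 0.49. Both calls were lost without control 2 and without knockout 2, and that on Mir339 without knockout 1 as well. The others that rose, Mir378b, Mir5123, Mir7664, Mir6911, Mir181a-2, Gm24282 and Gm25190, had at most 25 reads in any library. The precursors of well-known blood miRNAs, named here after their values were seen, had as few. Mir181a-2, whose miRNA acts in lymphoid development, had 5, 0, 3 and 11 reads (0.96, limma adjusted p = 0.0119) with overlapping groups. Mir142b, which lies antisense to the blood-specific mir-142 hairpin, had 12, 6, 10 and 6, Mir221 had 6, 8, 8 and 3, and Mir23a and Mir27a of 1 cluster had 14, 5, 4 and 9 and 8, 1, 2 and 7. None of these 4 was called. Mir144, of an erythroid miRNA cluster, had 0, 0, 3 and 5 reads and was not tested.

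Position in host transcripts was common to most of these genes. An intron of a same-strand gene held 176 of the 284, an exon 6, and 65 lay within a gene of the opposite strand, 36 between genes and 1 partly over a gene. The 182 within a same-strand host fell in 159 host genes. The 65 within a gene of the opposite strand were not compared with that gene, although the kit does not mark the strand. Of the 86 snoRNA genes within a same-strand host, 23 lay in 14 ribosomal protein genes, a common place of vertebrate snoRNAs. For 123 small RNA genes both the gene and its host were tested, and 77 had the sign of the host (61 after rescaling). Of these hosts Pvt1 and Tbxas1 rose and Gsr fell. Gm23010 in Tbxas1 (14, 11, 15 and 17 reads) had a log2 fold change of 0.55 against 0.87 for its host, and Gm24727 in Gsr (34, 20, 15 and 10 reads) had −0.46 against −0.60, neither snoRNA gene called. These 2 are named after their values were seen. The log2 fold changes of the small RNA genes spread with an SD of 0.53 and those of hosts with 0.28, and across the 123 pairs Pearson's r was 0.12, with the 4 libraries shared by all points. By type, r was 0.07 in 66 snoRNA pairs, −0.09 in 38 miRNA pairs and 0.51 in 11 snRNA pairs. Of 19 pairs of a snoRNA gene in a ribosomal protein gene, 7 had the sign of the host (11 after rescaling). In the 31 pairs with at least 20 reads, 23 had the sign of the host (18 after rescaling) and r was 0.53. Gm27782 with Pvt1 held the largest log2 fold change on both sides of these pairs (1.66 and 1.39). How far r rests on that pair was not tested. Before rescaling the median log2 fold changes of these small RNA genes and of their hosts were both above 0, at 0.30 and 0.37. These r describe the pairs and carry no test.

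**Figure D4:**
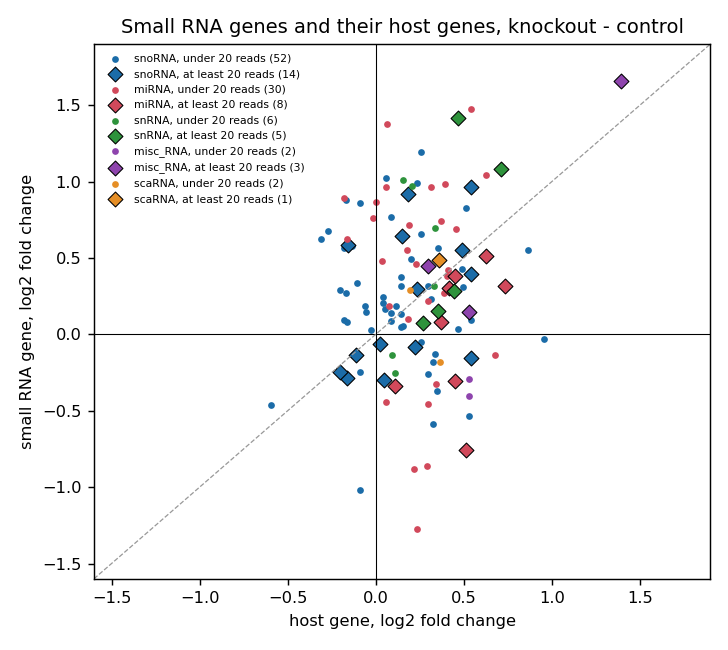
Log2 fold change (knockout minus control, on log2(RPKM + 1)) of each small RNA gene against that of its host gene, for 123 tested pairs, coloured by type, with diamonds for means of at least 20 recovered reads. The dashed line marks equal change. The vertical spread (SD 0.53) exceeds the horizontal (SD 0.28), and the misc_RNA diamond at the upper right is Gm27782 with Pvt1.

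The proteins that make or carry these RNAs gave no call in this fit. Of the tested genes 0 of 20 passed among miRNA processing and silencing proteins, 0 of 20 among snoRNP and scaRNP proteins, 0 of 37 among proteins for snRNA transcription and snRNP assembly, and 0 of 16 among partners of 7SK, Y, SRP and vault RNAs. The median log2 fold changes of the 4 lists were 0.30, 0.15, 0.26 and 0.31, against 0.31 for all tested genes. At an unadjusted p under 0.05 limma had 0, 0, 3 and 0 genes of these lists, against 16.2% of all genes, and voom called none with or without rescaling. At the smallest p-values of each list stood Tarbp2, the TRBP partner of Dicer (0.50, limma adjusted p = 0.313), Coil, the Cajal body scaffold coilin (0.55, 0.359), Snapc2, a subunit of the snRNA promoter complex (0.56, 0.199), and Larp7, which binds the 3′ end of 7SK (0.46, 0.307). Noncoding snoRNA host genes were tested in 12 and miRNA host genes in 4, again with no call (4 and 0 at an unadjusted p under 0.05). The largest difference among them was in Snhg9, which did not pass (2.83, 1.47, 4.27 and 5.76 RPKM, log2 difference 0.96, limma adjusted p = 0.0873). These counts depended on knockout 1: without it 51 genes of the 6 lists were called higher and 2 lower, together 48.6% of 109 tested, against 58.8% of all genes in that fit.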

How the data were processed

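RNA from 2 control and 2 knockout libraries of sorted mouse bone marrow stem cells was made into cDNA with a low-input poly(A)-primed kit, per the labels' protocols. The deposited table holds RPKM values made by the authors, a unit identified from the values, and the submitters' processing notes name mm10 as the genome build. Aligner, counter, strand use and the treatment of multi-mapping reads were not given in the sources used here. RPKM times the longest GENCODE M21 transcript length gave whole reads, within 0.1, for 99.4% of values and for 100% of those of the small RNA genes. A gene without reads stands at 0.001.

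The test was limma 3.58.1 (R 4.3.3) with a trend, on log2(RPKM + 1), for genes averaging 1 RPKM or more, genotype as sole term, 2 residual degrees of freedom, and Benjamini-Hochberg adjustment over 11742 genes. Copies were found with blastn 2.17.0. Alternatives were pseudocounts of 0.1 and 5, no filter, a mean of at least 10 reads, TMM-type rescaling, voom on recovered reads, leaving out each library, and the replicate number as a block. Libraries of a group differed by more than sampling noise (chi-square per degree of freedom 48.1 in controls and 149 in knockouts, 2.73 and 6.59 over small RNA genes), so none was treated as a duplicate deposit of another. Whether their sources were separate animals is not settled by it. The fit was tested on simulated data, with changes set only in genes that had more reads than most small RNA genes. The simulation gave all genes the same spread and shifted no library. It therefore cannot show how the fit performs on the small RNA genes.

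The members and lists were chosen with earlier results of these data known. Named are Ddx21, every called small RNA gene, the 6 with the highest RPKM of each type, the 4 largest changes in each direction among those with at least 20 reads and no overlap, their hosts, and per list up to 3 called or 2 uncalled genes. Part of the marker results is not reported here. Intervals and limits from counts cover counting error only.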

Additional observations from a re-analysis of the deposited data

How the results depend on the processing

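Few reads set the main limit: at the median length of 106 bases 1 read is worth 0.149 to 0.217 RPKM, and 167 of 284 genes have a mean under 10 reads. Over all genes the count of 391 higher and 101 lower became 0 and 0 after TMM-type rescaling, 36 and 13 with voom and that scaling, 175 and 64 with the replicate block, and ranged from 27 to 6381 and from 5 to 526 when 1 library was left out. For the small RNA genes 26 and 7 became 43 and 15 with no filter, 10 and 4 with a mean of at least 10 reads, 0 and 0 after rescaling, 0 and 0 with voom and that scaling, 7 and 1 with voom without rescaling (chosen after the data were seen), 7 and 3 with the replicate block, and ranged from 0 to 80 and from 0 to 16 when 1 library was left out. Of the 10 called under the block, 10 were among the 33. The correlation of same-numbered deviations was 0.067. With 2 libraries a group it cannot settle whether libraries of the same number were prepared together. In the partner and host lists Snhg18 was called higher (1 gene) with no filter and with at least 10 reads, and leaving out 1 library gave 0 to 51 higher and 0 to 2 lower. The median log2 fold change of 0.27 became 0.014 after rescaling and 0.025 with voom and that scaling, and ranged from 0.067 to 0.44 without 1 library. The cause of these changes was not tested. Among 59 named genes, 33 lost the call after rescaling, and the sign turned there for Gm22107 (−0.049), Gm26049 (−0.27) and Gm27542 (−0.14). With voom and that scaling it turned for Gm22107 (−0.063), Gm26049 (−0.25), Gm27542 (−0.20) and Gm23119 (−0.12). With 1 library left out the sign turned for 14 genes, whose log2 fold changes ranged from −0.85 to 0.34 (Gm22060), −0.58 to 0.0039 (Gm22571), −0.84 to 1.53 (Gm23119), −1.23 to 0.056 (Gm23935), −0.71 to 0.10 (Gm24270), −0.39 to 0.23 (Gm25360), −0.079 to 0.65 (Gm25492), −0.65 to 0.80 (Gm26049), −0.55 to 0.11 (Mir6236), −0.53 to 0.0048 (Mir703), −0.77 to 0.41 (Scarna13), −0.73 to 0.64 (Scarna17), −0.87 to 0.28 (Snora31) and −0.81 to 0.55 (Snord73a). Of these 14, Gm23935 alone was called with all 4 libraries, 7 were called without knockout 1 (Gm23119, Gm23935, Gm24270, Gm26049, Mir6236, Mir703 and Snord73a), and 0 in each of the other 3 fits.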
